A study of Mus musculus with 69 samples.

Results

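Ccl17, Ccl22 and Ccl24 encode chemokines of type 2 immunity, and their RNA was followed here in mouse bone marrow-derived macrophages (BMDMs) given interleukin-4 (IL-4). The 3 genes were taken by their symbols from tables of 24537 genes. The study compared inbred strains, F1 crosses and a knockout of the transcription factor Egr2, to learn how genetic variation alters the macrophage response to IL-4. BMDMs came from SPRET/EiJ (SPRET), PWK/PhJ (PWK), C57BL/6J (C57), NOD/ShiLtJ (NOD) and BALB/cJ (BALB) mice, with 3 basal and 3 IL-4 libraries per strain, except for 2 basal libraries in PWK. A separate time course covered C57 and SPRET at 0, 1, 6 and 24 hours of IL-4, with 2 libraries per time. Egr2 fl/fl mice (Egr2WT) and LyzM-Cre Egr2 fl/fl mice (Egr2MKO) were sampled at the same 4 times, with 2 libraries each. The controls therefore carried the floxed alleles as well, without Cre, and the LyzM promoter drives Cre in myeloid cells. F1 C57xSPRET and F1 C57xNOD BMDMs were sampled basally and after 24 hours, with 2 libraries per condition. All mice were female, 8 to 12 weeks old, and marrow cells were grown for 7 days with M-CSF and then received 20 ng/ml of IL-4. The methods call the libraries biological replicates, and neither they nor the labels say whether libraries of a group came from separate mice, so p-values measure the spread between these libraries.

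CCL17 and CCL22 both bind the receptor CCR4, which is carried by type 2 helper and regulatory T cells. CCL24, also called eotaxin-2, binds CCR3 and draws eosinophils. In macrophages, IL-4 acts through its receptor and the Janus kinases to activate STAT6, and the 3 chemokines are widely used markers of alternatively activated macrophages and, for CCL17 and CCL22, of dendritic cells. Egr2 is a transcription factor that IL-4 itself induces in macrophages.

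Expression is given as TPM, a level per unit of transcript length and library, so levels may be compared between genes of a library. The product of TPM and listed gene length gave whole reads for each of the 3 genes, to within 0.1 read, and these reads are quoted where levels are low. Libraries held 6.78 to 21.5 M recovered reads in the 5 strains, 5.07 to 21.4 M in the time course and 1.78 to 15.9 M in the Egr2 table. In that last table the tag totals of the headers could not be matched to the reads, since reads exceeded tags in 5 of 16 libraries. The shallowest library, Egr2MKO at 6 hours, replicate 2, stood apart with 1.78 M reads. Summed TPM of 7 macrophage markers lay between 10973 and 54086 in every library, while lymphocyte and fibroblast markers stayed at or below 0.3 and 0.304 TPM. Of the macrophage markers, Lyz2 alone ran from 5278 to 48274 TPM, and the lowest values of Csf1r, Adgre1 and Cd68 were 116, 240 and 1804 TPM. Fcgr1 fell to 0 TPM in the time course and Mertk to 0.569 TPM in the 5 strains. Differences were tested with limma on log2(TPM + 1), and a gene was called at a change over 2-fold with a Benjamini-Hochberg adjusted p under 0.05 over all genes tested.

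Ccl22 and Ccl17 are neighbors on the forward strand of chromosome 8, and Ccl24 lies alone among these on the reverse strand of chromosome 5. In mm10, the tables list Ccl22 at chr8:94745684-94751388, Ccl17 at chr8:94810453-94812036 and Ccl24 at chr5:135569937-135573043. Cx3cl1, which encodes fractalkine, lies between Ccl22 and Ccl17, 20792 bp from the former and 28027 bp from the latter. GENCODE M21 gives Ccl17 1 transcript with 3 exons, Ccl22 2 transcripts with up to 4 exons and Ccl24 2 transcripts with 4 exons, and no annotated gene overlaps any of the 3. RefSeq promoter windows of 300 bases (GRCm38.p6) were found for Ccl17 and Ccl22. The stretches upstream of every annotated start are printed for this gene pair because both genes rose in BALB and SPRET while their order among strains differed. The Ccl17 stretch is chr8:94810203-94810452 and the Ccl22 stretch is chr8:94745434-94745589, both on the forward strand, with motif matches in capitals.
Ccl17: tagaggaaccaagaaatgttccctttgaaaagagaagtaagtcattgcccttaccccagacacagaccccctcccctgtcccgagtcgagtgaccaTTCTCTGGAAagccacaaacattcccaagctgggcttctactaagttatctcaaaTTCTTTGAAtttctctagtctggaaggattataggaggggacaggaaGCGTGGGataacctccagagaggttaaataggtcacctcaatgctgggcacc
Ccl22: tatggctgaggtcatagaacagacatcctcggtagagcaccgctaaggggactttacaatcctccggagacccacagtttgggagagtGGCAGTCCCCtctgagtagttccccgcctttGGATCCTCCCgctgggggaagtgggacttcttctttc
Both strands were searched for a STAT6 palindrome (TTCNNNNGAA), a shorter STAT palindrome (TTCNNNGAA), an EGR core (GCGTGGG) and an NF-kB pattern (GGGNNNNNCC). The Ccl17 window held the STAT6 palindrome at -154 to -145 from the RefSeq start, the STAT palindrome at -99 to -91 and the EGR core at -52 to -46, and no match to the NF-kB pattern. The Ccl22 window held 2 matches to the NF-kB pattern on the reverse strand, at -162 to -153 and -131 to -122, and no match to the other 3. No 2 of these matches overlapped. Of 32851 promoters of the same length, 6.95% held the STAT6 palindrome, 8.3% the STAT palindrome, 5.04% the EGR core and 50.8% the NF-kB pattern. A match describes these letters in the reference strain and is not evidence of binding.

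After 24 hours of IL-4, the 3 chemokines were highest in SPRET, and each had its own order among the other strains. Ccl24 ranged from below 0.5 TPM in NOD to about 100 TPM in SPRET, Ccl22 from 4.5 to 50 TPM and Ccl17 from near 0 to 22 TPM. Under basal conditions, Ccl17 had no reads in C57, BALB, NOD and SPRET, and 1 read in 1 of the 2 PWK libraries. As bulk RNA was measured, more cells that express a gene and more RNA per cell cannot be told apart.

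Ccl17 was highest in IL-4-treated SPRET. Its levels there were 22.3, 21.0 and 23.1 TPM, from 166, 194 and 206 reads. The BALB libraries held 1.53, 1.34 and 0.679 TPM, those of C57 0.659, 1.05 and 0.666 TPM, and those of PWK 0.874, 1.18 and 0.372 TPM. In NOD, 0.168, 0.32 and 0 TPM rested on 2 reads in all, which is below the 3 reads per library taken as the floor. All SPRET libraries lay far above those of every other strain, whereas C57, BALB and PWK overlapped. Against the floor of the basal libraries, 0.399 TPM on average, Ccl17 was at least 55.5-fold higher after IL-4 in SPRET, and by the same reckoning at least 2.58-fold higher in BALB and 1.26-fold higher in C57. The log2 changes of log2(TPM + 1) for Ccl17 were 4.53 in SPRET (SE 0.14, adjusted p = 7.7e-19), 1.11 in BALB (SE 0.14, adjusted p = 1.2e-06), 0.83 in C57 (SE 0.14, adjusted p = 4.0e-05), 0.72 in PWK (SE 0.16, adjusted p = 0.0013) and 0.21 in NOD (95% interval -0.08 to 0.50, adjusted p = 0.27). By the 2-fold rule Ccl17 was called in SPRET and BALB. With 0 to 12 reads per IL-4 library, the calls outside SPRET depended on the pseudocount. At 0.1 TPM, C57, NOD, on its 2 reads, and PWK passed as well, and at 5 TPM, BALB no longer did. BALB also fell to 0.99, under the threshold, without the highest of its 24-hour libraries, replicate 1.

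Ccl22 rose past the 2-fold rule in 4 strains, PWK being the exception. In SPRET it went from 0.652, 1.06 and 1.56 TPM to 49.2, 51.6 and 48.4 TPM, a log2 change of 4.62 (SE 0.15, adjusted p = 1.9e-18). In BALB the basal libraries had 2.42, 3.55 and 1.82 TPM and the IL-4 libraries 34.0, 37.1 and 34.3 TPM, a log2 change of 3.36 (SE 0.15, adjusted p = 5.8e-15). Both strains thus reached high levels, with no overlap between conditions. C57 went from 0.292, 0.185 and 0.439 TPM to 8.10, 7.92 and 8.73 TPM, a log2 change of 2.83 (SE 0.15, adjusted p = 6.8e-14). NOD went from 1.76, 0.842 and 1.49 TPM to 6.26, 6.40 and 6.12 TPM, a log2 change of 1.64 (SE 0.15, adjusted p = 8.6e-09). In PWK, 2.19 and 3.04 TPM became 4.48, 4.44 and 4.72 TPM, and the log2 change of 0.63 (SE 0.17, adjusted p = 0.0077) was under 2-fold. PWK therefore combined the highest mean basal level, 2.62 TPM, with the lowest level after IL-4, while still not overlapping between conditions. The NOD change fell to 0.83, under the threshold, with a pseudocount of 5 TPM.

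Ccl24 showed the widest range of the 3 after IL-4. SPRET reached 90.0, 100.5 and 103.6 TPM, a log2 change of 6.53 (SE 0.15, adjusted p = 1.2e-21). C57 reached 24.0, 30.7 and 32.1 TPM, a log2 change of 4.63 (SE 0.15, adjusted p = 2.0e-18). BALB reached 11.5, 8.85 and 7.81 TPM, a log2 change of 2.87 (SE 0.15, adjusted p = 7.8e-14). The strains were separated from each other without overlap, and all basal libraries lay at or below 0.57 TPM. PWK reached 1.73, 1.56 and 2.95 TPM, a log2 change of 1.31 (SE 0.17, adjusted p = 1.2e-06) that fell to 0.43 with a pseudocount of 5 TPM. NOD stayed at 0.2, 0.38 and 0.459 TPM, with a log2 change of 0.30 (95% interval -0.01 to 0.61, adjusted p = 0.12) that passed the rule, at 1.30, with a pseudocount of 0.1 TPM. Among the 11907 genes tested, the share called in either direction was 3.94% for SPRET, 3.8% for C57, 2.08% for BALB, 2.08% for PWK and 1.19% for NOD. Of the 3 chemokines, 3 were called in SPRET and in BALB, 2 in C57, and 1 each in NOD and PWK.

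**Figure D1:**
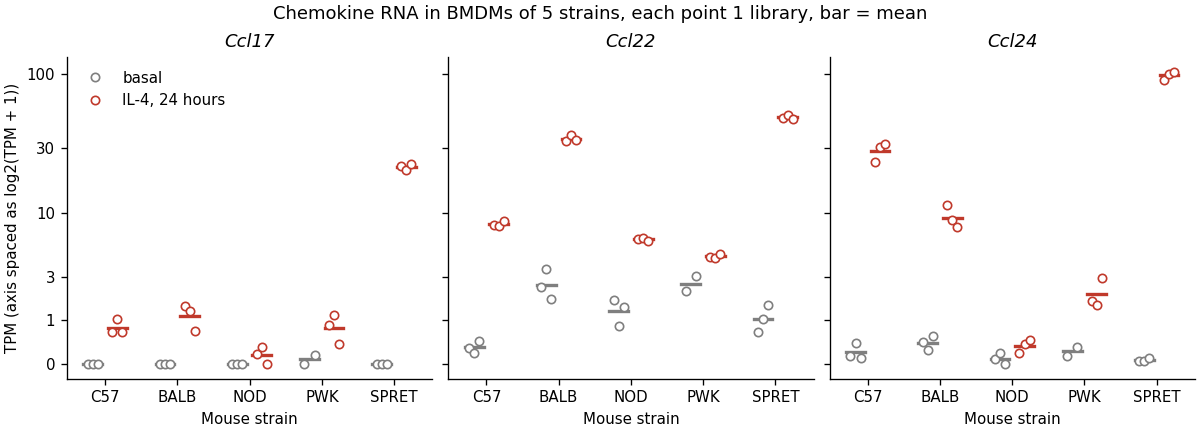
TPM of Ccl17, Ccl22 and Ccl24 in basal (grey) and 24-hour IL-4 (red) libraries of 5 strains, on an axis spaced as log2(TPM + 1), with points for libraries and bars for means on that scale. SPRET stands highest in all 3 panels after IL-4, PWK shows the narrowest gap for Ccl22, and NOD shows hardly any Ccl24.

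The order of levels after IL-4 differed between the genes. For Ccl22 it ran SPRET, BALB, C57, NOD and PWK, and each neighbor in this order differed beyond the spread of the libraries, although by less than 2-fold from SPRET to BALB (log2 difference 0.49, adjusted p = 0.0054), from C57 to NOD (NOD minus C57 -0.35, adjusted p = 0.046) and from NOD to PWK (PWK minus NOD -0.39, adjusted p = 0.027). BALB exceeded C57 by 1.97 on the log2 scale (SE 0.15, adjusted p = 6.7e-11), or 4.26-fold in mean TPM. For Ccl24 the order ran SPRET, C57, BALB, PWK and NOD, so BALB and C57 changed places, with BALB lower than C57 by a log2 difference of -1.53 (SE 0.15, adjusted p = 4.1e-09). The steps of this order were 1.73 from C57 to SPRET (adjusted p = 1.2e-10), -1.76 from BALB to PWK (adjusted p = 1.4e-10) and 1.17 from NOD to PWK (adjusted p = 1.6e-07). In mean TPM, Ccl24 was 83.6-fold higher in C57 than in NOD and 283-fold higher in SPRET than in NOD, the NOD mean resting on 10 reads. For Ccl17, SPRET was 28.0-fold above C57, a log2 difference of 3.70 (SE 0.14, adjusted p = 1.1e-17). C57, BALB and PWK were not separated, with log2 differences of 0.27 for BALB minus C57 (95% interval -0.02 to 0.56) and -0.28 for PWK minus BALB (95% interval -0.57 to 0.02), and a PWK minus C57 interval of -0.30 to 0.29. NOD was lower than C57 by a log2 difference of -0.63 (adjusted p = 0.00042) and lower than BALB by -0.90 (adjusted p = 5.3e-06), both under 2-fold.

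Strain differences beyond 2-fold were common among all genes. The share of tested genes called after IL-4 was 5.39% for BALB against C57, 13.2% for NOD against C57, 12.2% for PWK against C57 and 20.6% for SPRET against C57. It was 11.8% for NOD against BALB, 12.8% for PWK against BALB and 21.7% for SPRET against BALB. The remaining pairs gave 14.2% for PWK against NOD, 32.6% for SPRET against NOD and 22.6% for SPRET against PWK. Ccl24 was called in all 10 pairs, Ccl22 in 6 and Ccl17 in the 4 that include SPRET. Custom genomes served for mapping each strain, and the part of mapping in these levels was not tested.

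Among basal libraries, Ccl22 was the chemokine whose level varied most. Basal Ccl24 rested on 0 to 8 reads per library and was lower than in BALB by -0.40 in SPRET (adjusted p = 0.020) and by -0.37 in NOD (adjusted p = 0.028), both under 2-fold. The basal order of Ccl22 was PWK, BALB, NOD, SPRET and C57. PWK and BALB were not separated (log2 difference 0.03, 95% interval -0.32 to 0.38), nor were NOD and SPRET (SPRET minus NOD -0.18, 95% interval -0.49 to 0.13), while NOD lay below BALB by -0.60 (adjusted p = 0.0010). Against C57, basal Ccl22 was higher by 1.44 in BALB (adjusted p = 2.3e-08) and 1.46 in PWK (adjusted p = 5.2e-08), contrasts in which 4.81% and 13.3% of all genes were called. Dendritic cell markers, 7 in all with Cd209a at 0, summed to 4.56 to 5.65 TPM in basal BALB and 5.93 to 6.23 TPM in basal PWK, against 1.23 to 1.75 TPM in basal C57. Ccr7 alone had 3.99 to 4.71 TPM in basal BALB, 5.48 and 5.72 TPM in basal PWK and 0.781 to 0.963 TPM in basal C57. In basal BALB and in basal PWK, 1 of the 7 markers reached 1 TPM. The part of these markers in the Ccl22 levels was not tested. After IL-4 the sums were 3.02 to 3.09 TPM in SPRET, 4.65 to 6.38 TPM in BALB, 2.81 to 3.35 TPM in PWK, 2.49 to 2.64 TPM in NOD and 1.50 to 2.11 TPM in C57. The 5 markers of eosinophils, basophils and mast cells summed at 24 hours to 7.50 to 9.03 TPM in SPRET, where all 3 chemokines were highest, against at most 2.45 TPM in the other strains. In SPRET at 24 hours 1 of these 5, Mcpt8, reached 1 TPM. Over all libraries of the 5 strains Mcpt8 went up to 8.88 TPM. The highest values there were 1.48 TPM for Prg2, 0.36 for Cpa3, 0.138 for Ms4a2 and 0.055 for Epx. The 4 neutrophil markers summed to 15.5 to 15.9 TPM in basal PWK and 9.41 to 10.4 TPM in basal SPRET, against at most 2.77 TPM in the other strains, and at 24 hours to 7.46 to 11.2 TPM in PWK and 2.32 to 4.66 TPM in SPRET, against at most 1.44 TPM. Ly6g was at 0 in SPRET at both times. The part of these lists in the chemokine levels was not tested.

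The interaction contrasts compared the size of the response with that in C57. In SPRET the response was larger by 3.70 for Ccl17 (SE 0.20, adjusted p = 3.1e-13), 1.80 for Ccl22 (SE 0.21, adjusted p = 4.3e-07) and 1.90 for Ccl24 (SE 0.21, adjusted p = 1.2e-07). In PWK it was smaller by a log2 difference of -2.20 for Ccl22 (adjusted p = 9.2e-08) and -3.32 for Ccl24 (adjusted p = 6.0e-11), and the Ccl17 difference was -0.11 (95% interval -0.55 to 0.33). In NOD the differences were -4.33 for Ccl24 (adjusted p = 1.6e-13), -1.19 for Ccl22 (adjusted p = 0.00018) and -0.63 for Ccl17 (adjusted p = 0.019, under 2-fold). In BALB, Ccl24 responded less, by -1.76 (adjusted p = 1.3e-06), whereas the Ccl22 difference of 0.53 (adjusted p = 0.10) did not pass. That Ccl22 value turned to -0.66 with a pseudocount of 0.1 TPM and passed, at 1.09, with 5 TPM. The shares of all genes called in these contrasts were 3.45% for SPRET, 2.26% for PWK, 2.47% for NOD and 1.49% for BALB. The median 24-hour log2 change of all genes was 0.12 for NOD, 0.11 for SPRET, 0.08 for PWK, -0.04 for C57 and -0.11 for BALB, and the called changes lay far beyond it.

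**Figure D2:**
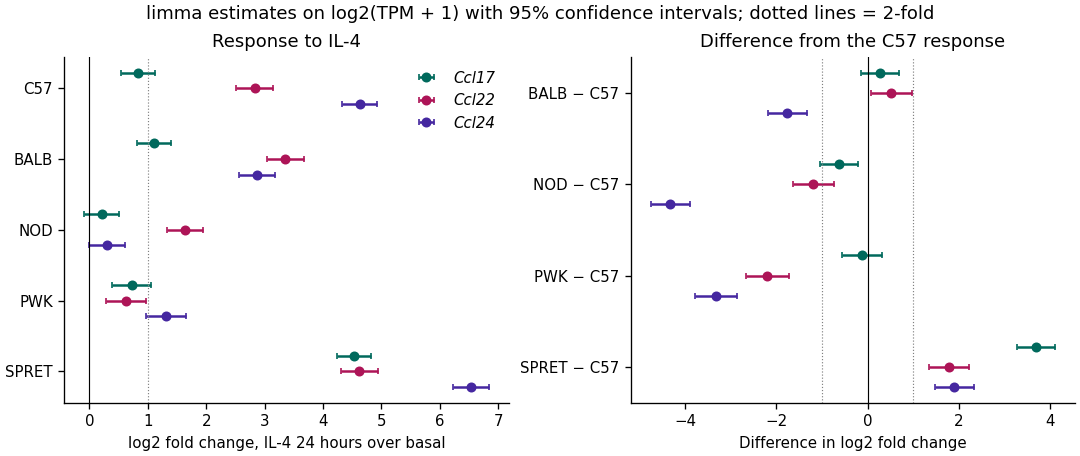
Left, log2 fold change of log2(TPM + 1) after 24 hours of IL-4 in each strain; right, its difference from C57; points are limma estimates and bars 95% confidence intervals. All 3 SPRET differences lie above 1, and the Ccl24 differences of BALB, NOD and PWK lie below -1.

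The time course showed the 3 genes rising at different times, and each passed the threshold at an earlier sampled time in SPRET than in C57. As a share of the 24-hour mean, the 6-hour mean of Ccl22 was 0.099 in SPRET and 0.076 in C57. For Ccl17 that share was 0.088 in SPRET and 0.148 in C57, the latter from 1 read at 6 hours. In SPRET, Ccl24 was first, with 0.294 and 0.433 TPM basally, 21.1 and 17.8 TPM at 1 hour, 66.5 and 51.2 TPM at 6 hours and 44.1 and 37.1 TPM at 24 hours. Its level at 1 hour was 53.6-fold above basal, the log2 changes were 3.91, 5.45 and 4.93 at the 3 times (adjusted p = 3.3e-09, 9.9e-11 and 1.7e-10), and the step from 6 to 24 hours was -0.52 (SE 0.15, adjusted p = 0.027), under 2-fold. Ccl24 thus peaked at 6 hours among the times sampled, with no overlap between 6 and 24 hours. Ccl22 had 0.836 and 1.08 TPM basally and 1.23 and 1.20 TPM at 1 hour, then 13.6 and 13.8 TPM at 6 hours and 147.6 and 130.0 TPM at 24 hours. Its log2 change was 0.18 at 1 hour (95% interval -0.08 to 0.45), 2.91 at 6 hours (adjusted p = 3.0e-09) and 6.16 at 24 hours (adjusted p = 3.2e-12), and the step from 6 to 24 hours was 3.25 (SE 0.12, adjusted p = 6.9e-09). Ccl17 was at 0 basally, at 0.582 and 0.947 TPM at 1 hour from 2 reads each, at 1.95 and 4.55 TPM at 6 hours and at 42.2 and 31.5 TPM at 24 hours. Its log2 change was 0.81 at 1 hour (adjusted p = 0.084), 2.02 at 6 hours (adjusted p = 7.3e-05) and 5.23 at 24 hours (adjusted p = 1.3e-08), with a step of 3.21 (adjusted p = 3.2e-06) between the last pair of times. Of all 12088 genes tested, 1.89%, 4.57% and 5.62% were called in SPRET at 1, 6 and 24 hours, and 1.85% in the step from 6 to 24 hours.

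In C57 the same genes were lower after IL-4 and passed the threshold later. Ccl24 had 0.072 and 0.227 TPM basally, 0.172 and 0.348 TPM at 1 hour, 1.48 and 1.79 TPM at 6 hours and 4.05 and 4.54 TPM at 24 hours. Its log2 change was 0.13 at 1 hour (95% interval -0.20 to 0.46), 1.20 at 6 hours (adjusted p = 0.00011) and 2.20 at 24 hours (adjusted p = 2.1e-07), so it kept rising between 6 and 24 hours (step 1.01, adjusted p = 0.00026). Ccl22 had 0.102 and 0.322 TPM basally, 0.305 and 0.124 TPM at 1 hour, 0.632 and 0.686 TPM at 6 hours and 8.48 and 8.94 TPM at 24 hours. Most of its rise fell in the last interval, with log2 changes of 0.46 at 6 hours (adjusted p = 0.018, under 2-fold) and 3.01 at 24 hours (adjusted p = 2.2e-09) and a step of 2.55 (adjusted p = 2.0e-08). At 1 hour its interval was -0.26 to 0.27. Ccl17 was at 0 until 1 read, 0.348 TPM, appeared in 1 library at 6 hours, and reached 1.31 and 1.04 TPM at 24 hours from 10 and 2 reads. Its log2 change was 0.22 at 6 hours (95% interval -0.35 to 0.78) and 1.12 at 24 hours (adjusted p = 0.0044), with a step of 0.90 (adjusted p = 0.018, under 2-fold). In C57, 0.877%, 2.13% and 5.76% of all genes were called at the 3 times and 3.58% in the step from 6 to 24 hours.

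**Figure D3:**
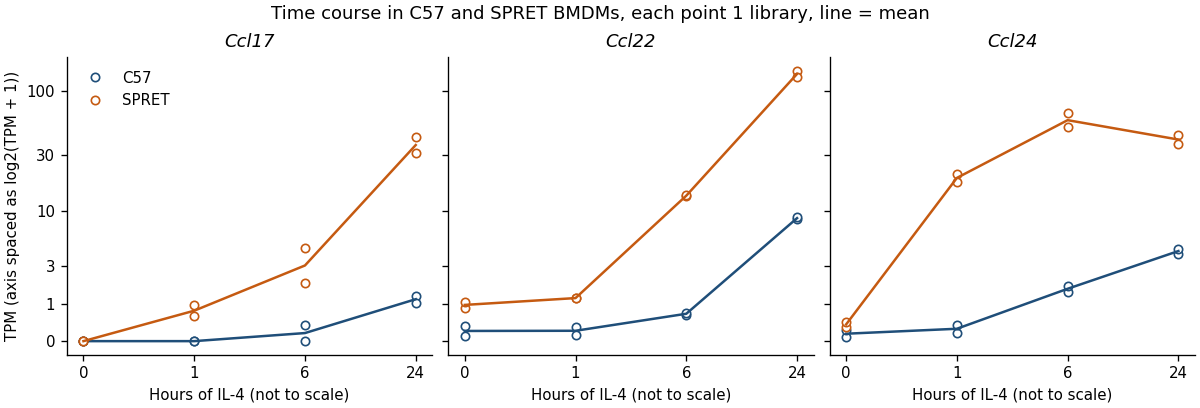
TPM of the 3 chemokines in C57 (blue) and SPRET (orange) at 0, 1, 6 and 24 hours of IL-4, on an axis spaced as log2(TPM + 1), with points for libraries and lines through means on that scale. Ccl24 of SPRET is already near 20 TPM at 1 hour, whereas Ccl17 and Ccl22 climb mostly between 6 and 24 hours in both strains.

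The gap between the strains opened first for Ccl24. Its response at 1 hour was larger in SPRET than in C57 by 3.77 (SE 0.21, adjusted p = 1.1e-06), at 6 hours by 4.25 (adjusted p = 1.8e-07) and at 24 hours by 2.73 (adjusted p = 2.0e-06). For Ccl22 the differences were 0.18 at 1 hour (95% interval -0.20 to 0.55), 2.45 at 6 hours (adjusted p = 2.9e-06) and 3.15 at 24 hours (adjusted p = 1.3e-07). For Ccl17 they were 0.81 at 1 hour (adjusted p = 0.44), 1.80 at 6 hours (adjusted p = 0.0071) and 4.11 at 24 hours (adjusted p = 6.1e-06). Genes called in these contrasts made up 0.811%, 2.4% and 6.22% of all tested at 1, 6 and 24 hours. In levels, SPRET exceeded C57 by 4.02 at 1 hour, 4.50 at 6 hours and 2.97 at 24 hours for Ccl24 (adjusted p = 2.3e-10, 8.6e-11 and 3.2e-09). The basal difference was 0.25 for Ccl24 (95% interval -0.08 to 0.58) and 0.69 for Ccl22 (adjusted p = 0.00032, under 2-fold). SPRET and C57 differed in 18.8%, 19.5%, 18.6% and 20.5% of all genes at 0, 1, 6 and 24 hours. In SPRET the 7 dendritic cell markers summed to 3.63 to 4.53 TPM basally and 8.16 to 8.85 TPM at 24 hours, against at most 1.19 TPM in C57, with Flt3, Siglech and Cd209a at 0 in SPRET at 24 hours. Zbtb46 alone had 6.23 and 6.69 TPM in SPRET at 24 hours, against 0.332 and 0.132 TPM in C57. Markers of eosinophils, basophils and mast cells, 5 in all with Prg2 or Epx at 0, summed to 10.7 to 21.9 TPM in SPRET against at most 1.01 TPM in C57. Over the time-course libraries Mcpt8 went up to 20.2 TPM. The highest values there were 2.50 TPM for Cpa3, 0.687 for Prg2, 0.439 for Ms4a2 and 0.061 for Epx. Neutrophil markers, with Ly6g and Ngp at 0, summed in SPRET to 8.865 to 8.894 TPM basally and 2.78 to 5.72 TPM at 24 hours. In C57 they summed to at most 0.993 TPM basally and 0.446 TPM at 24 hours. Among them Camp went up to 8.755 TPM over the time-course libraries. The part of these marker lists in the chemokine differences was not tested.

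The 2 experiments with C57 and SPRET were scaled separately and did not give the same 24-hour levels. C57 had 24.0 to 32.1 TPM of Ccl24 in the 5-strain experiment and 4.05 to 4.54 TPM in the time course. SPRET had 48.4 to 51.6 TPM of Ccl22 in the former and 130.0 to 147.6 TPM in the latter, and 90.0 to 103.6 against 37.1 to 44.1 TPM of Ccl24. C57 Ccl22 lay between 7.92 and 8.94 TPM in both. In the 5-strain experiment Ccl24 made up 76.2% of the summed mean TPM of the 3 genes in C57 and 57.7% in SPRET, but 30.3% and 18.8% in the time course. Ccl22 led the sum in BALB (76.9%), NOD (92.5%) and PWK (61.1%) at 24 hours. The direction of the SPRET to C57 difference was the same in both experiments for all 3 genes.

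In the absence of Egr2, Ccl22 was lower at 24 hours of IL-4, whereas the Ccl24 difference did not pass. Egr2 RNA itself lay between 21.3 and 100.7 TPM in Egr2WT and between 0.854 and 7.05 TPM in Egr2MKO, with no overlap at any time. As reads of all exons are counted, transcripts from the deleted allele can contribute to the Egr2MKO values. At 24 hours of IL-4, Ccl22 had 16.5 and 14.4 TPM in Egr2WT, from 213 and 166 reads, and 2.42 and 1.62 TPM in Egr2MKO, from 16 reads each. The mean was 7.64-fold lower in Egr2MKO, a log2 difference of -2.45 (SE 0.20, 95% interval -2.89 to -2.02, adjusted p = 1.5e-06). Ccl24 had 15.0 and 16.1 TPM in Egr2WT and 15.7 and 15.7 TPM in Egr2MKO, a difference of 0.02 (95% interval -0.63 to 0.66, adjusted p = 0.98). Differences smaller than that interval were not detectable with these libraries.

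The difference in Ccl22 passed the threshold at 24 hours only. Egr2WT had 0.076 and 0.097 TPM basally from 1 read each, 0.148 and 0.229 TPM at 1 hour, and 1.02 and 1.02 TPM at 6 hours, while Egr2MKO had 0.67 and 0.374, then 0.406 and 0.535, then 1.01 and 0.47 TPM. Egr2MKO lay above Egr2WT basally and at 1 hour without overlap, by 0.48 (adjusted p = 0.16) and 0.31 (adjusted p = 0.41), and the 6-hour difference was -0.23 (adjusted p = 0.46), none of which passed. Without the shallow Egr2MKO library the 6-hour difference was -0.00. The response at 24 hours was 3.91 in Egr2WT (SE 0.20, adjusted p = 2.3e-08) and 0.98 in Egr2MKO (SE 0.20, adjusted p = 0.0026), and the difference between these, -2.93 (SE 0.28, adjusted p = 4.4e-05), was tested directly. The Egr2MKO response lay just under 2-fold, and passed with a pseudocount of 0.1 TPM, with quantile normalization and without 24-hour replicate 2 (1.17) or basal replicate 1 (1.12). At 6 hours the Ccl22 responses were 0.89 (adjusted p = 0.0057) in Egr2WT and 0.18 (adjusted p = 0.53) in Egr2MKO, and at 1 hour 0.13 and -0.04 (adjusted p = 0.89 and 1). Dendritic cell markers summed to 1.47 to 1.59 TPM in Egr2WT and 1.68 to 2.09 TPM in Egr2MKO at 24 hours. Among them, Zbtb46 had 0.765 and 0.467 TPM in Egr2WT, from about 14 and 8 reads, and 0.136 and 0.091 TPM in Egr2MKO, from about 1 read each. It was lower without overlap like Ccl22, but its Egr2MKO values lay below the floor of 3 reads. Ccr7, in contrast, had 0.363 and 0.57 TPM in Egr2WT against 0.709 and 1.62 TPM in Egr2MKO. Neutrophil markers summed to 2.24 to 2.59 TPM in Egr2WT and 0.646 to 1.17 TPM in Egr2MKO. Their part in the Ccl22 difference was not tested.

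Ccl24 rose in both genotypes, and the difference between the responses did not pass. It had 0.106 and 0.137 TPM basally in Egr2WT and 0.145 and 0.075 TPM in Egr2MKO, 0.209 and 0.483 against 0.653 and 0.215 TPM at 1 hour, and 3.67 and 6.32 against 3.13 and 7.27 TPM at 6 hours. The genotypes overlapped at each time. Responses at 1, 6 and 24 hours were 0.26, 2.38 and 3.88 in Egr2WT (adjusted p = 0.82, 8.3e-05 and 8.4e-07) and 0.35, 2.40 and 3.91 in Egr2MKO (adjusted p = 0.88, 6.5e-05 and 6.7e-07). The difference in response at 24 hours was 0.03 (95% interval -0.88 to 0.94). Without the shallow Egr2MKO library its 6-hour response was 1.90 and the 6-hour difference between genotypes -0.50. Ccl17 had 0 reads in 15 of 16 libraries and 1 read in a basal Egr2MKO library, so it was not tested. At 24 hours its floor was 0.872 TPM in Egr2WT and 1.34 TPM in Egr2MKO, and a level like that of C57 in the time course would be near it. Of the 12079 genes tested, 0.778%, 2.86% and 4.35% were called in Egr2WT at 1, 6 and 24 hours and 0.902%, 3.7% and 4.83% in Egr2MKO. Between genotypes, 0.853%, 1.06%, 2.3% and 4.55% were called at 0, 1, 6 and 24 hours, and 1.9% in the 24-hour difference in response.

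**Figure D4:**
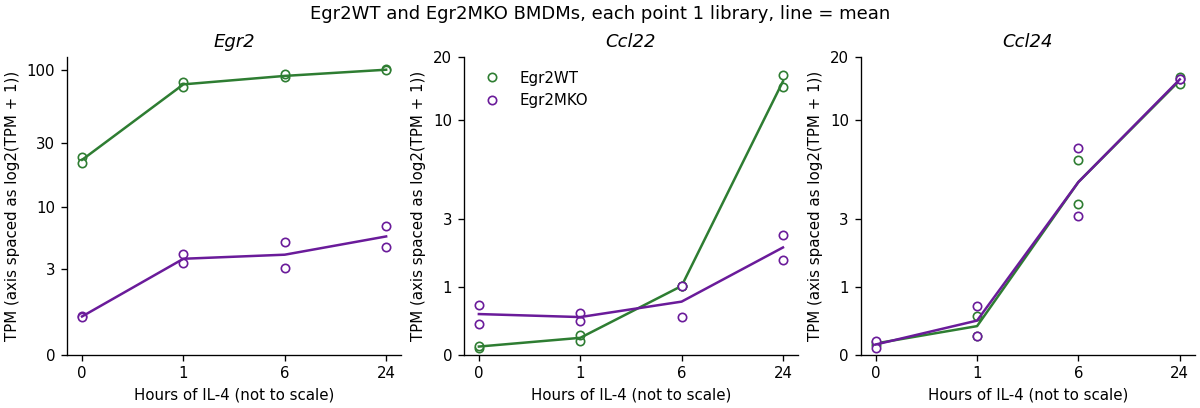
TPM of Egr2, Ccl22 and Ccl24 in Egr2WT (green) and Egr2MKO (purple) at 0, 1, 6 and 24 hours of IL-4, on axes spaced as log2(TPM + 1), with points for libraries and lines through means on that scale. The Ccl22 lines part at 24 hours, whereas those of Ccl24 run together.

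In F1 C57xSPRET cells both alleles are read from the same cells, which separates differences carried by the allele from those set by the rest of the genome. The F1 tables hold values weighted by reads over variants and scaled to the total of each allele column, without counts, so depth is unknown and no test was made with 2 libraries. At 24 hours, Ccl17 had 11.9 and 4.75 for the C57 allele and 50.1 and 28.1 for the SPRET allele, a mean log2 ratio of C57 to SPRET, each value plus 1, of -2.16, with -1.98 and -2.34 in the 2 libraries. Ccl24 had 22.7 and 20.6 against 96.2 and 45.4, a mean log2 ratio of -1.57, with -2.04 and -1.11. The SPRET allele was thus higher for both genes in both libraries. Ccl22 had 58.4 and 54.3 against 89.2 and 53.1, a mean log2 ratio of -0.29, with -0.60 in 1 library and 0.03 in the other. Between the parents, the log2 ratios in the 5-strain experiment and the time course were -3.70 and -4.11 for Ccl17, -2.46 and -3.85 for Ccl22, and -1.73 and -2.97 for Ccl24. On this scale the F1 ratio was nearest to the parental one for Ccl24 and farthest from it for Ccl22. The added 1 shrinks the parental Ccl17 ratio, as C57 averaged 0.791 TPM in the 5-strain experiment. In mean TPM there, SPRET exceeded C57 by 28.0-fold for Ccl17 and 6.03-fold for Ccl22. The order of Ccl17 and Ccl22 therefore depends on the scale. Over the 10085 genes with at least 1 in every 24-hour allele column, the median ratio was -0.03, and 6.11% lay beyond 2-fold, 3.41% toward the SPRET allele.

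Under basal conditions Ccl22 was higher from the C57 allele, with 2.85 and 1.51 against 0.304 and 0.798. Among the parents, SPRET had the higher basal level in both experiments. The basal allele values are low and of unknown depth, and their log2 ratios, each value plus 1, were 1.56 and 0.48. Basal Ccl17 was listed at 0 for the C57 allele in both libraries and at 0 and 1.92 for the SPRET allele. Basal Ccl24 had 1.57 and 0 against 1.67 and 0.977. The C57xSPRET table lists genomic spans as gene lengths, which lowers the values of long genes equally for both alleles. F1 values are therefore not on the scale of the parental TPM, and only ratios between alleles can be set beside the parents. The C57 allele of Ccl22, for example, averaged 56.3 in F1 at 24 hours, and C57 averaged 8.25 TPM in the 5-strain experiment. In F1 C57xNOD, all 3 genes were listed at 0 in all 8 allele columns, in a table where 78.9% to 83.6% of genes were at 0, and no ratio could be formed.

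**Figure D5:**
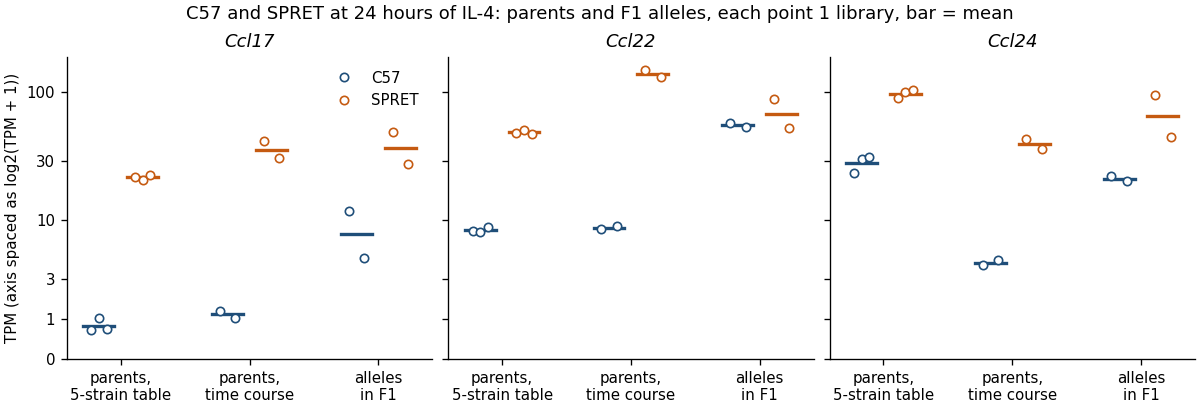
TPM after 24 hours of IL-4 in C57 (blue) and SPRET (orange) parents of both experiments, and values of the same alleles in F1 C57xSPRET cells, on an axis spaced as log2(TPM + 1), with points for libraries and bars for means on that scale. The strain gap of Ccl22 is wide between parents and closes between F1 alleles, whereas Ccl17 and Ccl24 keep the SPRET allele higher in both libraries. F1 values are scaled otherwise than parental TPM, so heights are not comparable between parents and F1.

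Other genes of the same chemokine axes were mostly silent. Of 11 ligands, receptors and scavengers, 2 were tested in the 5 strains, namely Ccl8 and Ackr4, and 3 each in the other tables. Ccl8, a ligand of CCR8 in the mouse, was called in all 5 strains, with log2 changes of 5.13 in PWK (adjusted p = 3.1e-19), 4.23 in C57 (6.0e-19), 2.58 in NOD (8.3e-14), 1.78 in SPRET (1.8e-11) and 1.38 in BALB (4.9e-09). In the time course it was called in C57 at 24 hours (1.09, adjusted p = 0.022) but not in SPRET, with 0 and 0.916 TPM basally and 0.647 and 0 TPM at 24 hours (-0.11, adjusted p = 0.84). In the 5-strain experiment, Ccl8 was lower in SPRET than in C57 at 24 hours, unlike the 3 chemokines, by a log2 difference of -6.81 (adjusted p = 4.1e-24). In Egr2MKO at 24 hours it was higher than in Egr2WT by 2.77 (adjusted p = 2.0e-07), opposite in direction to Ccl22. Ccr3, the receptor of CCL24, was higher in Egr2MKO by 1.18 (adjusted p = 0.0012) at that time. Ccr4, the receptor of CCL17 and CCL22, and Cx3cl1 passed the filter in the time course, where SPRET exceeded C57 at 24 hours by 1.17 (adjusted p = 4.2e-05) and 1.12 (adjusted p = 3.9e-05). Neither responded to IL-4 there beyond the threshold, with log2 changes between -0.06 and 0.17 at 24 hours.

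Among 13 genes of the IL-4 receptor, its kinases and downstream factors, all were tested. At 24 hours, 5 rose in C57, namely Cish, Egr2, Irf4, Pparg and Socs1, and 6 in BALB and in SPRET, where Klf4 was added. In NOD 2 rose, Cish and Pparg, and in PWK 3 rose, Cish, Egr2 and Pparg. None fell in these 5 contrasts, in which 3.94% of all genes were called for SPRET, 3.8% for C57, 2.08% for BALB and PWK and 1.19% for NOD. Egr2 itself rose by 4.09 in SPRET, 2.01 in PWK, 1.97 in C57 and 1.08 in BALB, and its value in NOD was 0.08 (adjusted p = 0.50). Its order among strains was not that of Ccl22, which was second highest in BALB and lowest in PWK. Socs1, a feedback inhibitor of the kinases, rose by 5.70 in SPRET and 2.91 in C57 and had a value of -0.21 in NOD. Stat6, the factor through which IL-4 acts, had values from -0.08 in BALB to 0.39 in NOD, none of them called. The list's median change was 0.52 for SPRET, 0.35 for PWK, 0.14 for NOD, 0.12 for BALB and 0.12 for C57, beside the medians of all genes given above.

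Genes around the loci were also examined. Within 100 kb of the 3 genes, 12 others are listed, of which 9 were tested in the 5 strains and 0 were called in the 24-hour response of any strain, where 1.19% to 3.94% of all genes were called, so that few or none would be called among any 9 genes. Their median response lay between -0.08 and 0.11. Some differed between strains in both conditions, such as Ciapin1, 7782 bp from Ccl17, which at 24 hours exceeded the C57 level by 1.53 in BALB (adjusted p = 4.9e-16) and 2.69 in NOD (adjusted p = 2.7e-21). In SPRET against C57 at 24 hours, Arl2bp (1.10), Ccdc102a (2.15) and Rhbdd2 (1.58) were higher, in a contrast where 20.6% of all genes were called. Hip1, beside Ccl24, was lower in NOD than in C57 by a log2 difference of -1.25. In F1 cells the SPRET allele of Ccdc102a was also higher, with a mean log2 ratio of -1.52, as was that of Rhbdd2 at -0.96. The C57 allele of Ccdc102a was near 0, at 0.413 and 0.165, and the mean ratio of Arl2bp was -0.35.

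By pattern over the 10 group means of the 5-strain table, each chemokine had genes more like it than the other 2 were. In the time course, Ccl17 and Ccl22 were more like each other than like any of the 5 genes picked for each. Genes were not ranked anew there. Pearson r between members was 0.80 for Ccl17 and Ccl22, 0.87 for Ccl17 and Ccl24, and 0.85 for Ccl22 and Ccl24. Of 2479 genes whose means ranged over at least 2 on the log2 scale, those most like Ccl17 were Vegfd (0.99), Fbp1 (0.97), Pald1 (0.95), Snx25 (0.94) and Serpina3i (0.93). For Ccl22 they were Cisd1 (0.90), Il4i1 (0.90), Gm21948 (0.89), Fchsd2 (0.88) and Mcf2l (0.87). For Ccl24 they were Pdcd1lg2 (0.95), Plekhf1 (0.94), Cisd1 (0.94), Atp6v0a1 (0.93) and Rab3il1 (0.93). All of these peaked in IL-4-treated SPRET. Over the 8 group means of the time course, r was 0.96 for Fbp1 with Ccl17, 0.93 for Cisd1 with Ccl22 and 0.91 for Plekhf1 with Ccl24, but 0.43 for Serpina3i and 0.27 for Rab3il1. There, r was 0.97 for Ccl17 with Ccl22, above the values of Fbp1 and Cisd1, and 0.77 for Ccl24 with either of them. Il4i1 encodes an IL-4-induced amino acid oxidase, Pdcd1lg2 the PD-1 ligand PD-L2 and Fbp1 a gluconeogenic enzyme. The groups share libraries and scaling, so r is a description and no p is given.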

How the data were processed

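RNA was sequenced after poly(A) selection. The authors mapped reads with STAR to a genome built for each strain, shifted them to mm10 and counted them over exons with HOMER, and the deposited values are TPM, here analysed as log2(TPM + 1). Column sums of 602020 to 690215 TPM were not rescaled. Columns of the authors' own DESeq2 comparisons (adjusted and raw p-values with log2 fold changes) were not used, and a table of human macrophages, which no sample label describes, was not used either. Low TPM values multiplied by gene length were whole within 0.1 read for 87.8% to 93.1% of values, and the floor was set at 3 reads per library. F1 values were, per the methods, counts weighted by allele-specific reads over variants, and those tables were scaled per allele column.

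Each table was fitted separately with limma 3.58.1 in R 4.3.3, with a mean for each group and a variance trend, over genes that reached 1 TPM in 2 or more libraries (11907 genes in the 5 strains, 12088 in the time course, 12079 in the Egr2 table). All groups of a table shared one estimate of spread. The script was tested on simulated data. Replicate numbers were not taken to pair the libraries, and no 2 libraries of a group were duplicates by their counts (chi-square per degree of freedom 1.50 to 30.2 over 44 pairs). The members, the gene lists and the neighbors within 100 kb were chosen with earlier results of these data known. Named genes were the 3 members, called genes of the lists and the 5 genes most like each member by Pearson r, among genes whose group means ranged over at least 2 on the log2 scale. Alternatives were pseudocounts of 0.1 and 5 TPM, no filter, other scalings, fewer groups, a replicate block and leaving out libraries.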

Additional observations from a re-analysis of the deposited data

Results flagged for a closer look

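Responses to IL-4 that differed between strains or genotypes, by a direct test of the difference in limma on log2(TPM + 1), were the following. Relative to C57 at 24 hours, the SPRET response was larger by 3.70 for Ccl17, 1.80 for Ccl22 and 1.90 for Ccl24. The PWK difference was -2.20 for Ccl22 and -3.32 for Ccl24, and the BALB difference was -1.76 for Ccl24. The NOD difference was -4.33 for Ccl24, -1.19 for Ccl22 and -0.63 for Ccl17, of which the last was under 2-fold. In the time course, SPRET exceeded C57 by 3.77 for Ccl24 at 1 hour. At 6 hours the differences were 1.80 for Ccl17, 2.45 for Ccl22 and 4.25 for Ccl24, and at 24 hours 4.11, 3.15 and 2.73 in the same order. In Egr2MKO the 24-hour response of Ccl22 differed from that in Egr2WT by -2.93.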

How the results depend on the processing

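Of 2032 alternative values for 147 results, 1938 kept their direction and their side of the threshold. With a pseudocount of 0.1 TPM, 22 results newly passed the threshold, and with 5 TPM 17 no longer did. Named here are those among the 24-hour responses, their differences from C57 or between Egr2 genotypes, and the 24-hour level difference between those genotypes. The remaining results that changed are not named. With 0.1 TPM, the 24-hour response of Ccl17 passed the threshold in C57 (3.13), NOD (1.16) and PWK (2.38), as did Ccl24 in NOD (1.30), Ccl22 in Egr2MKO (1.79) and the NOD to C57 response difference of Ccl17 (-1.96), and the BALB to C57 response difference of Ccl22 turned to -0.66. With 5 TPM that difference passed at 1.09, while the responses of Ccl17 in BALB (0.30), Ccl22 in NOD (0.83), Ccl24 in PWK (0.43) and, in the time course, C57 Ccl17 (0.30) and Ccl24 (0.85) no longer passed, nor did the Ccl22 response differences of NOD (-0.49) and PWK (-0.99). A larger pseudocount shrinks changes of low genes by construction. Differences near 0 changed sign: PWK minus C57 for Ccl17 at 24 hours was 0.0028 with 5 TPM, 0.0058 with median-ratio scaling and 0.066 with quantile normalization, and the C57 response of Ccl22 at 1 hour was -0.0019 and -0.017 under those 2 scalings. For Ccl24, Egr2MKO minus Egr2WT was 0.012 at 6 hours with 5 TPM and, at 24 hours, -0.11 with median-ratio scaling and -0.096 with quantile normalization, and the 24-hour response difference was -0.097 with median-ratio scaling. The Egr2MKO response of Ccl22 at 24 hours passed at 1.01 with quantile normalization. The causes of these sign changes were not tested.

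Leaving out libraries gave the following ranges. Ccl17 in BALB spanned 0.99 to 1.28, and lost its call without replicate 1. PWK minus C57 for Ccl17 spanned -0.15 to 0.18 in level at 24 hours and -0.31 to 0.075 in response. Basal Ccl22 spanned -0.15 to 0.21 for PWK minus BALB and -0.35 to 0.10 for SPRET minus NOD. The 1-hour response of Ccl22 spanned -0.13 to 0.14 in C57 of the time course and -0.18 to 0.097 in Egr2MKO, whose 6-hour response spanned -0.043 to 0.41 and whose 24-hour response spanned 0.79 to 1.17. Ccl24 in Egr2MKO minus Egr2WT spanned -0.061 to 0.030 basally, -0.14 to 0.30 at 1 hour, -0.50 to 0.50 at 6 hours and -0.032 to 0.062 at 24 hours, and its 24-hour response difference -0.016 to 0.077. The F1 ratio of Ccl22 was -0.60 to 0.032. Leaving out whole replicate numbers in the 2-library tables left no residual degrees of freedom and was not run. Single-library omissions in the 5-strain table were chosen after seeing the data.

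Libraries of the same number did not deviate together (r from -0.14 to 0.33, over 0.1 in 2 of 14 pairs of the 5 strains and in 0 of the others). A replicate block changed no call, with 4.53 for Ccl17 in SPRET and -2.45 for Ccl22 in Egr2MKO minus Egr2WT at 24 hours.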
